A study of Mus musculus with 6 samples.

Results

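The genes described here code for the claudins and their partners at the tight junction, the belt that seals neighbouring epithelial cells to each other. They were taken as all non-control probes whose gene name in the scanner files is a numbered claudin or one of Tjp1, Tjp3, Marveld1 to Marveld3, Ocln, Cgn, F11r, Jam2, Jam3, Magi1 and Magi3. This gave 35 genes with 51 probes, of 27339 genes with 41174 probes on the array, and 23 of the 35 genes carry a claudin name. The study hybridised total RNA of whole mouse kidneys to 6 single-colour arrays. Gpr97-deficient mice with renal ischaemia/reperfusion injury (IRI), an injury by stopped and restored blood supply, gave 1 array, and injured wild-type mice gave 2 arrays. Gpr97-deficient mice after sham surgery gave 1 array, and sham-operated wild-type mice gave 2 arrays. Gpr97 is an adhesion G protein-coupled receptor whose current gene symbol is Adgrg3, and all 6 samples are labelled male. The sources used here do not give strain, age, the part of the gene that was removed, how long ischaemia lasted or when kidneys were taken.

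Claudins span the membrane of both neighbouring cells and meet in the gap between them, where some form pores for ions or water and others close the path. Each nephron segment carries its own set, so that the proximal tubule is leaky, the thick ascending limb lets calcium and magnesium pass and the collecting duct is tight. Occludin and the other MARVEL proteins sit beside the claudins in the membrane, junctional adhesion molecules form a further set of contacts, and zonula occludens proteins with cingulin tie the strands to actin inside the cell. The segment given with each claudin below is such background knowledge and was not measured on these arrays.

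Signals are log2 values relative to the 75th percentile of each array, so that a value of 0 stands for the same brightness as that percentile. A probe's brightness depends on its sequence, so values are compared between arrays and not between genes. Adgrg3 was at -5.75 on the injured Gpr97-deficient array and at 1.06 and 1.18 on the injured wild-type arrays, and at -5.38 after sham surgery in Gpr97 deficiency and at 0.20 and 0.02 on the wild-type sham arrays. Wild-type injured array 2 and wild-type sham array 1 lay on slide 1 and the other 4 arrays on slide 2. Both Gpr97-deficient arrays were thus on slide 2, and the arrays of each wild-type group were split between the slides. On wild-type injured array 1 the Xist signal was 4.05 and elsewhere at most -5.45, while 4 genes of the Y chromosome passed the background limit on the other 5 arrays and not on this one. This goes against the male label of that sample. The counts of members whose injured and sham arrays do not overlap are given without it as well. Counts at an unadjusted p, of within-slide pairs and of markers include it. No label states that each array is a separate animal, and the p-values therefore reflect the spread among these 6 samples alone, which may be technical. Between 63.0% and 71.0% of probes were well above background on an array, 0 spots were saturated, and the number of arrays limits the precision.

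Of the 35 genes, 29 were well above background on at least 2 arrays and were tested, and 27 of these were above background on all 6. Cldn6, Cldn13, Cldn17 and Cldn22 were not well above background on any array. Cldn18 passed on 1 sham array and Cldn23 on 1 injured array. Cldn6 is a claudin of embryonic epithelia, Cldn17 an anion pore reported in proximal segments and Cldn18 a claudin of stomach and lung. The probes named Cldn25 and Cldn26 in the files belong to genes that RefSeq now calls Cldnd1 and Tmem114, and the file's names are kept here. The tested members include 17 of claudin name, 4 MARVEL proteins, 3 junctional adhesion molecules and 5 proteins of the cytoplasmic plaque.

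Injury was set against sham over both genotypes with limma, in a model of genotype plus surgery that compares 3 injured with 3 sham arrays. In the injured kidneys the claudins of the distal nephron Cldn3, Cldn4 and Cldn7, the parietal epithelial claudin Cldn1, the magnesium-path regulator Cldn14, the adhesion molecule Jam2 and the plaque gene Cgn lay above sham on every array, as did the MARVEL gene Marveld3. The claudin Cldn10 and the adhesion molecule Jam3 lay below sham on every array. The largest difference was that of Cldn4, 2.76-fold higher after injury. None of the 29 members passed limma's test at a Benjamini-Hochberg adjusted p of 0.05 over all 19608 tested genes, where 0% of genes passed. The lowest adjusted p among members was 0.269, for Cldn4.

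At an unadjusted p under 0.05, 6 members were higher after injury (Cgn, Cldn1, Cldn3, Cldn4, Cldn7 and Jam2), against 5.56% of all tested genes, and 1 was lower (Cldn8), against 6.72% of all. The 3 injured arrays lay above the 3 sham arrays for 8 of 29 members, against 9.69% of all genes, and below them for 2 of 29, against 13.1% of all. Without wild-type injured array 1 these counts were 10 above, against 14.4% of all genes, and 3 below, against 21.2%. With fewer arrays more genes separate by construction. All 3 injured minus sham pairs within a slide were positive for 11 members, against 18.7% of all genes, and negative for 6, against 26.4%. The median log2 difference of the members was 0.10, with 17 higher and 12 lower, and the median over all tested genes was -0.06. In whole tissue, fewer cells of a type and less RNA per cell cannot be told apart.

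**Figure D1:**
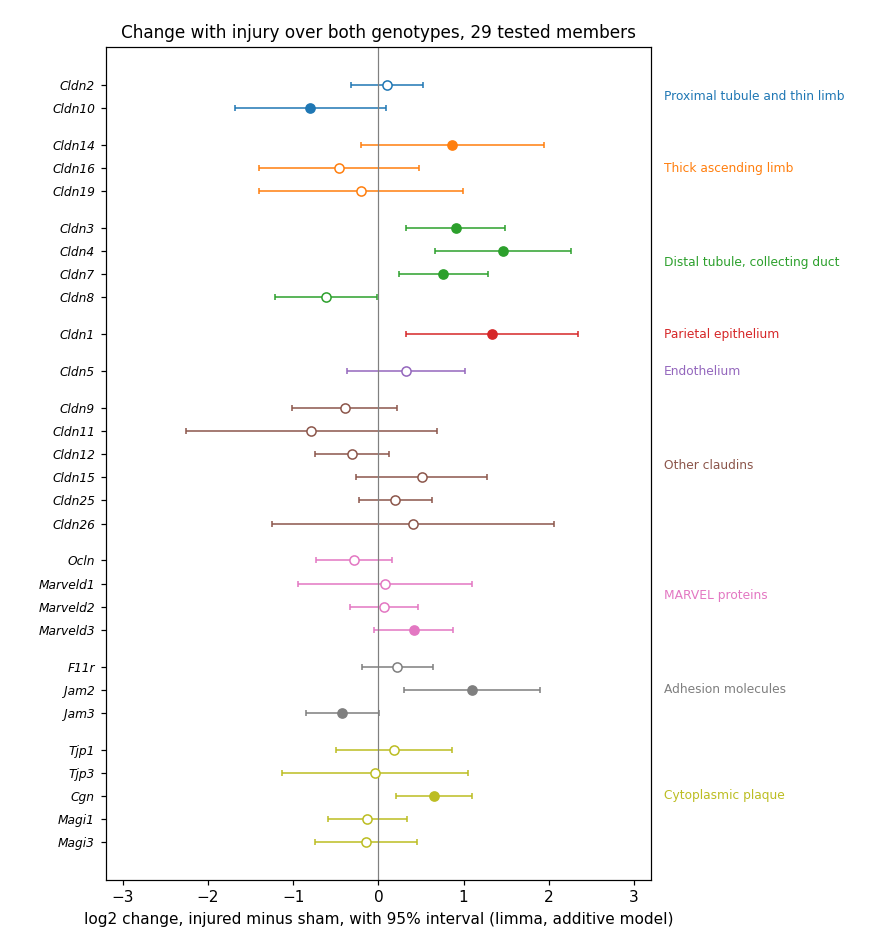
Log2 difference, injured minus sham, over both genotypes for the 29 tested members, in order of nephron segment and role. Points are limma estimates of the additive model with 95% intervals not adjusted for the number of genes, and filled points are the 10 members whose 3 injured and 3 sham arrays do not overlap. Cldn4 lies farthest to the right at 1.47, and Cldn10 and Cldn11 farthest to the left at -0.80 and -0.79.

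The claudins of the distal tubule and collecting duct are taken first, with 3 of the 4 higher on every injured array, against 9.69% of all genes, and the fourth lower in each within-slide pair. The sequence just upstream of the RefSeq start of the 3 higher ones, and of Cldn1, is shown, as examples of claudins higher on every injured array. Cldn14 was higher on every injured array as well, and its windows are described below without being printed. Each window holds the 250 bases before the start, read 5′ to 3′ on the gene's strand from RefSeq on GRCm38.p6. Cldn3 and Cldn4 both lie on chromosome 5, on opposite strands. Capitals mark any match on either strand to AACNNGTT (the grainyhead-type motif), TGANTCA (the AP-1 type motif) or CAGGTG (an E-box of the kind bound by Snail and Zeb proteins). No 2 marked matches overlap.
Cldn4, chr5:134946935-134947184, minus strand: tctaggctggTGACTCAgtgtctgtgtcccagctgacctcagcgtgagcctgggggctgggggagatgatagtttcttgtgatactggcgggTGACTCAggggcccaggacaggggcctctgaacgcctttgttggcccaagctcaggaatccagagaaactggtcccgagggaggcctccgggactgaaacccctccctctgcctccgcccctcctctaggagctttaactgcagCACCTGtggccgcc
Cldn3, chr5:134985964-134986213, plus strand: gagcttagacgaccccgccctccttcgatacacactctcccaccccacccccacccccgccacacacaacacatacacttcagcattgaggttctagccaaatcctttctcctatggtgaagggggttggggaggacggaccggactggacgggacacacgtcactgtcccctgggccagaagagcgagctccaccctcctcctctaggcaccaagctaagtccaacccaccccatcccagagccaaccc
Cldn7, second window, chr11:69965171-69965420, plus strand: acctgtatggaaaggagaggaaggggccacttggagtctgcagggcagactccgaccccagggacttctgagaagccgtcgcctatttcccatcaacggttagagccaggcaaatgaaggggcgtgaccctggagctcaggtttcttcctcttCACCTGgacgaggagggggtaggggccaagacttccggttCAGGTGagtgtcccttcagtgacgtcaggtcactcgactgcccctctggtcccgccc
Cldn1, chr16:26371840-26372089, minus strand: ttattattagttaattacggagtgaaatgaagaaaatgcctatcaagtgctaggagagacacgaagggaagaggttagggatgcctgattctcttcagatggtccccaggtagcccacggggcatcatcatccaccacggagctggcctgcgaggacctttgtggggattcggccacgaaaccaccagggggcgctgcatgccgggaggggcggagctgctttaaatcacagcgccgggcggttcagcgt

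The Cldn4 window held 2 matches to TGANTCA, starting 240 and 158 bases before the start, and 1 match to CAGGTG, on the other strand, 14 bases before it. The first of the 2 Cldn7 windows, not printed, held no match to the 3 motifs. The second held 2 matches to CAGGTG, 97 and 57 bases before the start, and the Cldn3 and Cldn1 windows held no match to the 3 motifs. Of the 3 Cldn14 windows, the second held 1 match to CAGGTG, 31 bases before the start, and the others held no match. RefSeq windows were at hand for 24 of the 29 tested members, 35 windows in all. AACNNGTT was present in 2 of these 35 windows, against 3.6% of all 32851 windows, and TGANTCA in 3, against 6.7%. CAGGTG was present in 8 of the 35, against 17.2% of all, and the GC box GGGCGG, searched on both strands and not marked here, in 21, against 32.7%. Windows of the same gene can overlap and share a match, as for GGGCGG in Cldn12, Cldn19 and Marveld2. Member windows ranged from 36.0% to 72.4% in G and C bases, most of them above the median of 52.4% over all windows. A match only describes the letters of the window.

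Cldn4 codes for a claudin that limits sodium passage in the collecting duct and is the receptor of a Clostridium toxin. Its log2 signal was -0.81, -1.52 and -0.57 on the Gpr97-deficient injured array and wild-type injured arrays 1 and 2, against -2.18, -2.30 and -2.80 on the Gpr97-deficient sham array and wild-type sham arrays 1 and 2. The lowest injured array stood above the highest sham array, with means of -0.96 ± 0.50 after injury and -2.43 ± 0.33 after sham (SD, n = 3 each). The log2 difference was 1.47 ± 0.31 (SE) with an unadjusted limma p of 0.00523 and an adjusted p of 0.269. Within slides, the difference was 1.38 in the Gpr97-deficient pair and 1.74 and 1.28 in the wild-type pairs of slides 1 and 2, so all 3 pairs were at least 2-fold. Triples of values below keep this order of arrays. The probe lies on chromosome 5, 135421347 to 135421406, in the mm9 build.

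Cldn3, a barrier-forming claudin of the distal nephron, stood at 1.08, 0.89 and 1.25 after injury, against 0.49, -0.22 and 0.22 after sham. Every injured array was above every sham array. Its log2 difference was 0.91 ± 0.23 (SE; limma adjusted p = 0.303), or 1.88-fold, and it was 0.58 in the Gpr97-deficient pair and 1.47 and 0.67 in the wild-type pairs. Its probe lies on chromosome 5, 135463179 to 135463238, in mm9.

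Cldn7, a claudin also found along the basolateral membrane of distal and collecting duct cells, stood at 2.97, 2.77 and 2.56 after injury, against 2.46, 1.56 and 2.0 after sham. Here the gap between the groups was narrow, since the lowest injured value, 2.56, was close to the highest sham value, 2.46, which came from the Gpr97-deficient array. Injured kidneys exceeded sham by a log2 value of 0.76 ± 0.20 (SE; limma adjusted p = 0.323). With normexp background correction the injured and sham arrays of Cldn7 overlapped.

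Cldn8, the collecting duct claudin that works with Cldn4 in the path for chloride, was lower in each within-slide pair. It stood at 2.51, 2.31 and 1.67 after injury, against 3.03, 2.81 and 2.51 after sham. The Gpr97-deficient injured array met the lowest sham array at 2.51, so the groups touched. The log2 difference was -0.62 ± 0.23 (SE; limma unadjusted p = 0.0455, adjusted p = 0.397), and the within-slide differences were -0.51 in the Gpr97-deficient pair and -1.14 and -0.19 in the wild-type pairs.

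Klhl3, the ubiquitin ligase adaptor reported to degrade Cldn8, was -1.07 ± 0.64 in log2 difference (SE; limma adjusted p = 0.549), with overlapping groups. The marker counts from here on are read against 9.69% of all genes above and 13.1% below sham on every injured array. Markers of the collecting duct did not lie apart: 0 of 10 separated the injured from the sham arrays in either direction, and 8 of the 10 had a lower mean after injury. Their median log2 difference was -0.24. Their summed linear signal ranged from 58.2 to 113.8 times the 75th percentile on injured arrays and from 99.2 to 130.5 times on sham arrays, and each of the 10 was above background on at least 1 array. The marker genes of injured tubule cells stood apart, with 10 of 12 above sham on every injured array, a median log2 difference of 1.88 and a summed signal of 534.1 to 776.6 times the 75th percentile against 126.5 to 214.8 times on sham arrays. Krt20, a keratin of injured tubules and of urothelium, was above background on all 6 arrays, with means of 4.75 after injury and -3.56 after sham and a log2 difference of 8.31 (limma adjusted p = 0.236). The 7 urothelial markers had a median difference of -0.18 and summed signals of 0.74 to 1.80 after injury against 0.26 to 1.99 after sham. The part of these markers in the claudin differences was not tested.

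**Figure D2:**
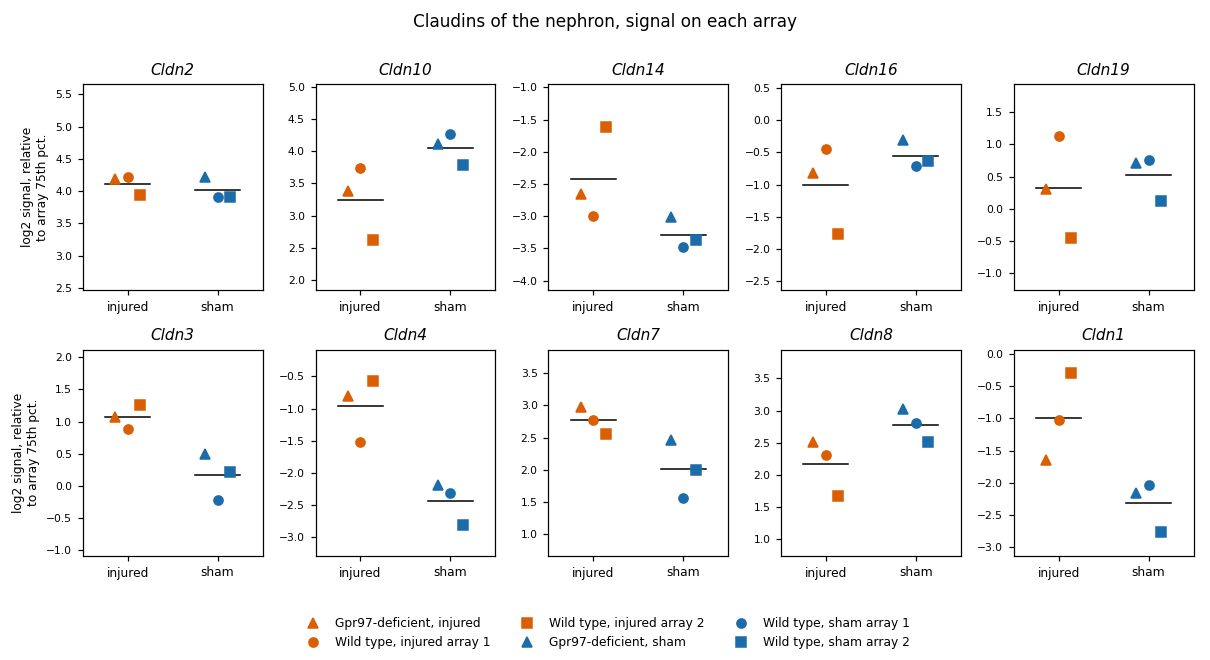
Log2 signal relative to the 75th percentile of each array for 10 claudins with a nephron segment as background, with the injured arrays on the left and the sham arrays on the right of each panel. Each symbol is 1 array, horizontal lines are means of 3 arrays, and the vertical span is the same in all panels. Cldn3, Cldn4, Cldn7, Cldn1 and Cldn14 lie above sham on every injured array, Cldn10 lies below, and Cldn2 overlaps at about 4.

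The detected claudins grouped here under the proximal tubule and thin descending limb were Cldn2 and Cldn10, although Cldn10 is not confined to these segments. Cldn2, the cation and water pore of the proximal tubule, was at 4.19, 4.22 and 3.94 after injury, against 4.22, 3.90 and 3.92 after sham. The groups overlapped and the log2 difference was 0.10 ± 0.16 (SE; limma adjusted p = 0.847), with a 95% interval of -0.32 to 0.52. With normexp the sign of the Cldn2 difference turned, to -0.10. Cldn10, which forms a chloride or a sodium pore depending on its splice form, was at 3.38, 3.74 and 2.62 after injury, against 4.11, 4.26 and 3.78 after sham. Every injured array was below every sham array, but by very little on slide 2, where wild-type injured array 1 stood 0.04 below wild-type sham array 2. Its log2 difference was -0.80 ± 0.34 (SE; limma adjusted p = 0.439), or 1.74-fold lower, and it was -0.73 in the Gpr97-deficient pair and -1.64 in the wild-type pair of slide 1. After quantile normalization, and in the values the authors deposited, the Cldn10 groups overlapped. The probe, on chromosome 14 from 119273459 to 119273518 in mm9, matches several RefSeq transcripts of Cldn10, so the pore forms cannot be told apart. The segment behind the Cldn10 difference is therefore not known from these values.

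Of 10 markers of the proximal tubule, 9 lay below sham on every injured array, against 13.1% of all genes, with a median log2 difference of -1.17 and 0 past the adjusted threshold. Their summed signal was 394.8 to 671.1 times the 75th percentile after injury, against 881.3 to 1115 times after sham. Slc34a1, the phosphate transporter, and Lrp2, the endocytic receptor megalin, had log2 differences of -1.65 and -1.30 (limma adjusted p = 0.326 and 0.269). Whether Cldn2 differs from those markers in its response was not tested.

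The thick ascending limb claudins gave mixed values. Cldn14, which blocks the cation path formed by Cldn16 and Cldn19, was at -2.66, -3.00 and -1.61 after injury, against -3.01, -3.48 and -3.38 after sham. All injured arrays were higher, although wild-type injured array 1 met the Gpr97-deficient sham array closely, and wild-type injured array 2 was far above the rest. In log2 units the difference was 0.87 ± 0.42 (SE; limma adjusted p = 0.478), and 0.40 without wild-type injured array 2. After quantile normalization, and in the deposited values, the Cldn14 groups overlapped.

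Cldn16, whose loss causes renal magnesium wasting in people, was at -0.83, -0.45 and -1.77 after injury, against -0.31, -0.71 and -0.63 after sham. Cldn19, its partner in the pore, was at 0.31, 1.13 and -0.45 after injury, against 0.71, 0.75 and 0.12 after sham. Both were lowest on wild-type injured array 2 and both groups overlapped, with log2 differences of -0.46 ± 0.37 and -0.20 ± 0.46 (SE; limma adjusted p = 0.651 and 0.905). The Cldn16 difference was -0.84 without wild-type injured array 1, where its injured arrays all lay below sham, -0.094 without wild-type injured array 2 and -0.066 with normexp. The Cldn19 difference was 0.22 without wild-type injured array 2, and a second Cldn19 probe gave 0.05. The 9 thick ascending limb markers, which include these 2 claudins, had a median log2 difference of -0.66, with 2 of 9 below sham on every injured array. Their summed signal was 283.5 on wild-type injured array 2 and 417.4 to 528.5 on the other injured arrays, against 480.6 to 539.8 on sham arrays.

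Cldn1, a claudin of the parietal cells that line Bowman's capsule, was at -1.65, -1.02 and -0.30 after injury, against -2.16, -2.03 and -2.76 after sham. All injured arrays were higher, the Gpr97-deficient one by the least. The log2 difference was 1.33 ± 0.39 (SE; limma adjusted p = 0.333), with 0.51 in the Gpr97-deficient pair and 1.73 and 1.75 in the wild-type pairs. A second Cldn1 probe gave 1.53. The difference between the genotypes in this change, -1.23 ± 0.73 in log2 (SE), had an unadjusted limma p of 0.166. Of 7 podocyte and parietal cell markers, 3 lay above sham on every injured array, with a median log2 difference of 0.26 and summed signals of 6.11 to 6.62 after injury against 4.81 to 6.09 after sham.

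The remaining claudins had overlapping groups. Cldn12, a claudin linked to calcium passage, was lower in all 3 within-slide pairs, with a log2 difference of -0.31 ± 0.17 (SE), and Cldn9 was lower in all 3 as well, with -0.40 ± 0.24 (SE). Normexp turned the Cldn9 difference to 0.066, and with normexp the injured arrays of Cldn12 all lay below sham. Cldn25 was higher in all 3 pairs by 0.08 to 0.37. Cldn11, the claudin of myelin and Sertoli cells, was above background on 2 of 3 injured arrays and all 3 sham arrays, with a log2 difference of -0.79 ± 0.57 (SE) that normexp turned to 0.29. The Cldn11 difference moved to -0.14 when wild-type sham array 1 was left out, and to -1.34, with separate groups, when wild-type sham array 2 was left out. Cldn26 was above background on 2 arrays of each kind, with 0.40 ± 0.64 (SE), and -0.18 in the wild-type arrays alone. The adjusted limma p of these 5 genes lay above 0.5.

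Cldn15, a sodium pore best known from the intestine, was the member with the lowest unadjusted p in the test of whether the injury change differed between genotypes. It stood at 1.39, 0.36 and 0.35 after injury, against 0.13, 0.46 and -0.01 after sham. The Gpr97-deficient injured array was the highest of the 6, and the other 5 lay between -0.01 and 0.46. The summed signal of 5 adipocyte markers was also highest on that array, at 32.4 against 12.6 to 13.7 on the others, most of it from Fabp4, a lipid carrier that endothelium makes too, while Adipoq and Lep were not above background there. The endothelial sum was 68.9 on that array and 47.1 to 53.1 on the others, and the part of both lists in the Cldn15 value was not tested. The difference of injured minus sham was 1.25 in the Gpr97-deficient pair and 0.13 ± 0.28 (SE) in wild type. At an unadjusted p under 0.05 it was the 1 member higher after injury in the Gpr97-deficient pair, against 1.45% of all genes, and the 1 member higher in Gpr97 deficiency after injury, against 0.704%. The difference between those changes was 1.12 ± 0.48 (SE; limma unadjusted p = 0.0784, adjusted p = 1), and it rests on 1 array per Gpr97-deficient group.

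Among the proteins inside the membrane plaque, Cgn, or cingulin, which links the scaffolds to myosin, was at -2.46, -2.29 and -2.46 after injury, against -2.87, -3.05 and -3.25 after sham. The injured arrays were within 0.17 of each other and above all sham arrays, and the log2 difference was 0.66 ± 0.17 (SE; limma adjusted p = 0.323). The other 2 Cgn probes gave 0.84 and 0.85. Groups stayed separate on the former and overlapped on the latter. There wild-type injured array 1, at -4.39, lay below wild-type sham array 1, at -4.23, where the probe was not above background.

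Tjp1, or ZO-1, had overlapping groups, with -0.76, -1.26 and -0.45 after injury against -1.04, -0.83 and -1.15 after sham. Its log2 difference was 0.18 ± 0.27 (SE) and turned to -0.036 without wild-type injured array 2. A second, dimmer Tjp1 probe, above background on all 6 arrays, gave 0.47, with every injured array above every sham array. Tjp3, or ZO-3, ranged from -0.55 to 1.01 after injury and from 0.21 to 0.57 after sham, with a difference of -0.04 ± 0.43 (SE). The membrane-associated scaffolds Magi1 and Magi3 had differences of -0.13 and -0.15, with overlapping groups.

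**Figure D3:**
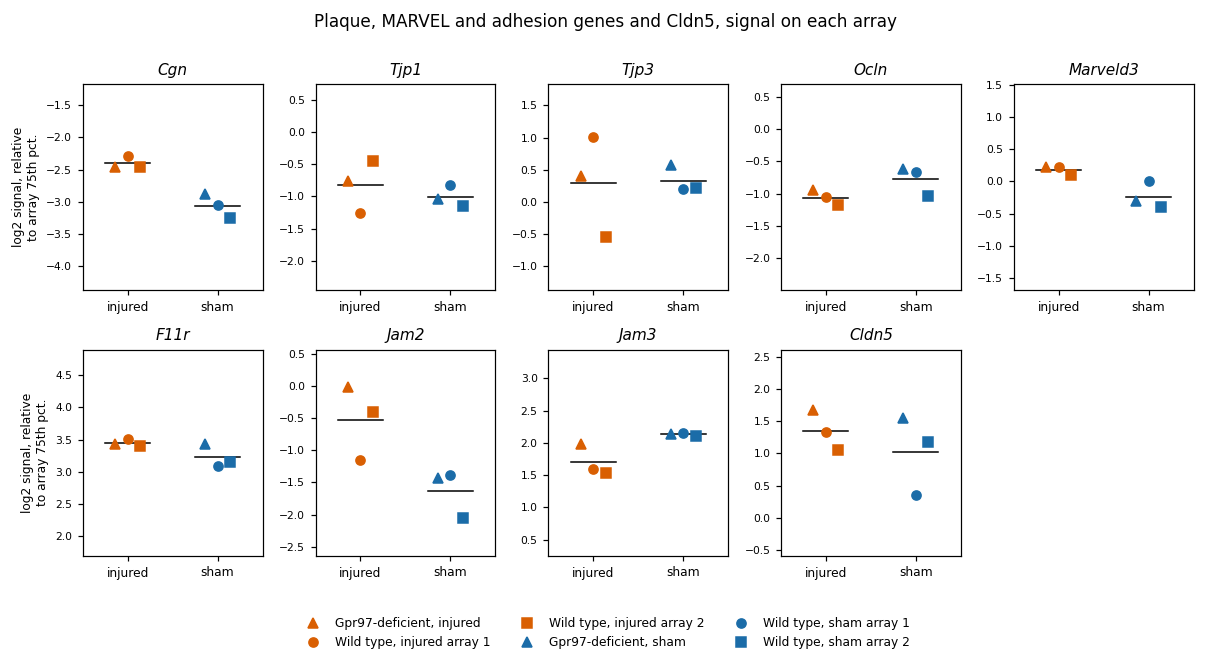
Log2 signal relative to the 75th percentile of each array for plaque, MARVEL and adhesion genes and the endothelial claudin Cldn5, with the injured arrays on the left and the sham arrays on the right. Each symbol is 1 array, horizontal lines are means of 3 arrays, and the vertical span is the same in all panels. Cgn, Marveld3 and Jam2 lie above sham on every injured array, Jam3 lies below, and the Cldn5 triangles are the Gpr97-deficient arrays at 1.67 and 1.55.

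Of the MARVEL proteins, Marveld3 separated by a small amount, with 0.22, 0.22 and 0.10 after injury against -0.31, 0.00 and -0.40 after sham. This amounted to a log2 difference of 0.41 ± 0.18 (SE; limma adjusted p = 0.441), and a second probe gave 0.24. On that second probe the groups overlapped, since wild-type injured array 2, at -1.836, lay below the Gpr97-deficient sham array, at -1.785. Occludin, Ocln, was at -0.95, -1.05 and -1.18 after injury, against -0.61, -0.67 and -1.04 after sham. It was lower in all 3 within-slide pairs, by 0.34 in the Gpr97-deficient and 0.51 and 0.01 in the wild-type pairs, with overlapping groups, and the difference of -0.29 ± 0.17 (SE; limma adjusted p = 0.554) turned to 0.033 with normexp. Marveld2, or tricellulin, which seals the corners where 3 cells meet, differed by 0.07 ± 0.16 (SE), and Marveld1 by 0.08 ± 0.40 (SE).

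The junctional adhesion molecules stood in different orders. Jam2, an adhesion molecule of endothelium and of leukocyte passage, was at -0.02, -1.15 and -0.40 after injury, against -1.44, -1.38 and -2.06 after sham. All injured arrays were higher, with a log2 difference of 1.1 ± 0.31 (SE; limma adjusted p = 0.329), or 2.15-fold, and a second probe gave 0.76. The groups overlapped on that second Jam2 probe, which was above background on 5 arrays. There wild-type injured array 1, at -4.55, lay below the Gpr97-deficient sham array, at -4.44. Jam3, the binding partner of Jam2, was at 1.99, 1.59 and 1.54 after injury, against 2.14, 2.16 and 2.10 after sham. All injured arrays were lower, and the sham arrays lay close together. The difference was -0.43 ± 0.17 (SE; limma adjusted p = 0.408), with -0.15 in the Gpr97-deficient pair. F11r, or JAM-A, the adhesion molecule of epithelial tight junctions, differed by 0.22 ± 0.16 (SE), with overlapping groups. After quantile normalization, and in the deposited values, its injured arrays all lay above sham.

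Cldn5, the barrier claudin of endothelium, was at 1.67, 1.33 and 1.06 after injury, against 1.55, 0.35 and 1.18 after sham, with overlapping groups and a log2 difference of 0.32 ± 0.27 (SE; limma adjusted p = 0.671). That difference was 0.058 without wild-type sham array 1 and 0.53 without wild-type sham array 2. The endothelial markers Nos3 and Kdr differed by 0.76 and -0.66, and the median of 10 endothelial markers was 0.20. Their summed signal was 47.1 to 68.9 times the 75th percentile after injury, against 47.3 to 53.1 times after sham. Of 7 fibroblast and smooth muscle markers, 5 lay above sham on every injured array, with a median of 1.07 and summed signals of 41.1 to 55.5 after injury against 24.4 to 33.2 after sham. None of the 10 endothelial markers lay above sham on every injured array and 1 lay below, and the part of either list in the Jam2 and Cldn5 values was not tested.

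In wild type alone, with the fit of group means over all 6 arrays, 0 of 29 members had an adjusted limma p under 0.05 (0% of all genes). At an unadjusted p under 0.05, 5 members were higher after injury (Cgn, Cldn1, Cldn3, Cldn4 and Cldn7), against 3.22% of all genes, and 0 were lower, against 3.17%. In the Gpr97-deficient pair, which has 1 array for each surgery, the injured array was at least 2-fold above sham for 4 of 29 members, Cldn4, Cldn15, Cldn26 and Jam2, against 4.56% of all genes, and at least 2-fold below for 0, against 5.32%. The plot of within-slide differences sets the 3 pairs side by side. In limma's test of the difference between the genotypes in the injury change, 0 members reached an unadjusted p under 0.05, against 0.622% of all genes with a larger and 0.862% with a smaller change in Gpr97 deficiency, and the adjusted p was 1 for all 29.

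**Figure D4:**
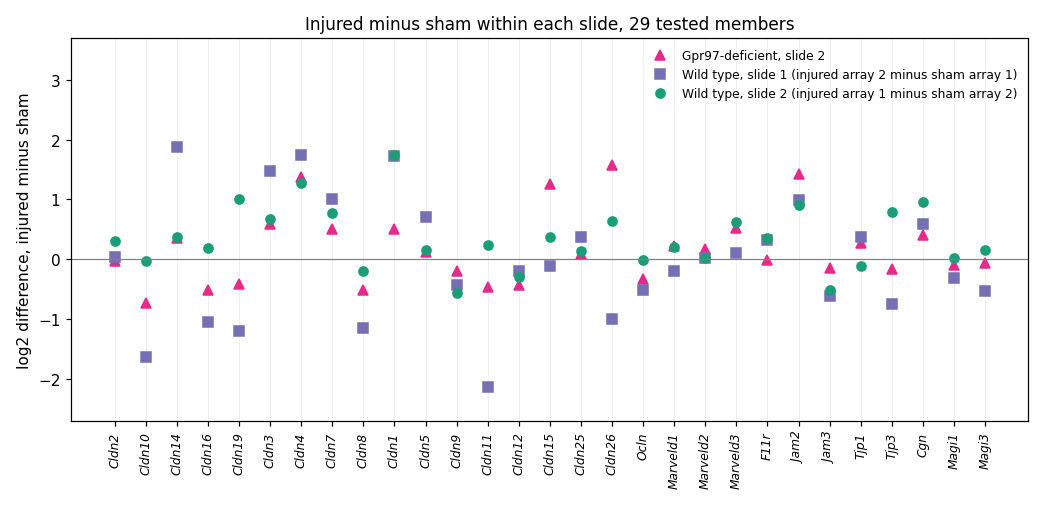
Log2 difference of an injured minus a sham array of the same slide for the 29 tested members. Triangles are the Gpr97-deficient pair of slide 2, squares the wild-type pair of slide 1 and circles the wild-type pair of slide 2. All 3 symbols lie above 0 for 11 members and below 0 for 6, and the slide 1 pair is often the farthest from 0, as for Cldn10 at -1.64 and Cldn14 at 1.87.

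Gpr97 deficiency was set against wild type over both surgeries in the additive model, with 2 against 4 arrays. None of the 29 members had an adjusted limma p under 0.05 (0% of all genes) and 0 had an unadjusted p under 0.05 in either direction, against 1.38% of all genes higher and 1.88% lower. The lowest adjusted p among members was 0.993. The median log2 difference was 0.20, with 23 members higher in Gpr97 deficiency and 6 lower, beside a median of -0.01 over all tested genes. The summed signal of 8 red blood cell markers was 60.5 on the injured and 253.8 on the sham array of Gpr97 deficiency, against 122.1 on wild-type injured array 1 and 5.53 to 12.4 on the other wild-type arrays. The median genotype difference of the 4 tested markers of that list was 2.96, and its part in the members' values was not tested. Within slide 2, which holds 2 Gpr97-deficient and 2 wild-type arrays, the median was 0.13, with 20 higher and 9 lower, beside -0.02 over all genes. One of these wild-type arrays is wild-type injured array 1, whose signals go against its male label.

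Cldn5 was the 1 member whose Gpr97-deficient arrays, at 1.67 and 1.55, both lay above the 4 wild-type arrays, at 0.35 to 1.33, against 4.33% of all genes that did so. Over both surgeries its log2 difference was 0.63 ± 0.29 (SE; limma unadjusted p = 0.0796, adjusted p = 0.993), and 0.36 within slide 2. The 10 endothelial markers had a median genotype difference of 0.34, whose part in the Cldn5 value was not tested. No member had both Gpr97-deficient arrays below the wild-type arrays, against 6.53% of all genes. Cldn7 had a log2 difference of 0.49 ± 0.22 (SE; limma adjusted p = 0.993), and 0.33 within slide 2.

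Within slide 2, Cldn11, Jam2 and Cldn4 stood 1.09, 0.88 and 0.67 higher in Gpr97 deficiency on the log2 scale, with limma adjusted p of 1, 0.798 and 0.999 in the fit with slide as a block. In the additive model over all 6 arrays these differences were smaller, at 0.63, 0.52 and 0.30. The injured wild-type array of slide 2 is array 1, whose signals go against its male label. Cldn11 was not above background on wild-type injured array 2. After injury, the Gpr97-deficient array was at least 2-fold above the wild-type mean for 2 members, Cldn15 and Cldn26, against 2.5% of all genes, and at least 2-fold below it for 0, against 4.49%. Between the injured arrays of slide 2 alone, the genotypes differed by 1.02 in log2 for Cldn15 and by 0.21 for Cldn26. The 2-fold gap of Cldn26 thus rests on wild-type injured array 2, whose signal of -5.79 did not pass the background limit. After sham, 0 members were 2-fold apart in either direction, against 2.99% of all genes above and 4.52% below, and 0 had an unadjusted p under 0.05, against 1.21% of all genes higher and 0.933% lower.

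Other genes of the junction were read from lists. Of 33 further tight junction and polarity genes with a probe, all tested, 4 lay above and 6 below sham on every injured array, against 9.69% and 13.1% of all genes, with a median log2 difference of 0.09 and 0 past the adjusted threshold. Those with the largest differences were Ybx3, the ZO-1 partner ZONAB, at 0.89, the polarity kinase Prkcz at -0.79, the polarity scaffold Pard3 at -0.77 and Ildr2, an angulin of tricellular contacts, at -0.75. Their adjusted limma p lay between 0.277 and 0.382. This list holds Cldnd1, which is the member named Cldn25 in the files.

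Of 14 adherens junction genes, 4 lay above and 1 below sham on every injured array, against the same 9.69% and 13.1%, with a median of 0.12 and 0 past the adjusted threshold. Nectin1, an adhesion molecule, and Jup, or plakoglobin, were higher by 0.75 and 0.51, and the cadherins Cdh6 and Cdh16 differed by 0.91 and -0.54 with overlapping groups. Of 22 reported regulators of claudins, 3 lay above and 3 below, against 9.69% and 13.1%, with a median of -0.08 and 0 past the adjusted threshold. Snai1, a repressor of claudin genes, differed by 1.37 ± 0.43 (SE; limma adjusted p = 0.347) and Elf3, an epithelial activator of transcription, by 1.25 ± 0.25 (SE; limma adjusted p = 0.263), and both were above sham on every injured array. Ovol1, a repressor of transcription in epithelia, lay below sham on every injured array, at -0.78 ± 0.32 (SE; limma adjusted p = 0.419).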

How the data were processed

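Kidney RNA was hybridised to single-colour Agilent arrays with mm9 probe positions, per the file headers. The authors deposited scanner files with an intensity for each spot, read with Feature Extraction 10.7.1.1 on slide 1 and 10.7.3.1 on slide 2, per the file headers. The well above background and outlier columns are deposited flags, other than intensity. The authors also deposited log2 values of the same arrays, whose normalization is stated no further than the name limma in the submitters' processing notes. They ordered the probes of each array as the scanner signals did (Spearman's rank correlation at least 0.99997), so their direction is known.

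The processed signal was taken as log2 minus the 75th percentile of each array over 43379 of 45018 spots, without controls, and non-uniform or population outlier spots were left out. Spots of a probe were averaged, and each gene was represented by its brightest probe on average. The test covered 19608 genes that passed the background flag on 2 or more arrays, of which 19599 had a value on every array. Limma 3.58.1 in R 4.3.3, with version 1.17.8 of data.table, fitted genotype plus surgery, or 4 group means for comparisons within a genotype or surgery. Each Gpr97-deficient group has 1 array, whose variation was assumed equal to that in wild type. Tests are two-sided, adjusted by Benjamini-Hochberg over all tested genes, and the fits were tested on simulated data. With 3 arrays against 3, an exact permutation test cannot fall below 0.10, so counts of genes whose groups do not overlap are read against the same share over all genes.

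The members and gene lists were chosen with earlier results of these data known. Every member may be named, and from each other list at most the 4 genes with the largest absolute difference for injury. No 2 of the 15 pairs of arrays held identical signals. Alternatives covered background correction, normalization, the deposited values, the filter, the slide, the variance prior, the choice of probe and each array left out. Another 5 probes whose current RefSeq name, but not their name in the files, is that of a claudin were not taken as members. One further gene is not reported here and is left out of the counts of members.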

Additional observations from a re-analysis of the deposited data

How the results depend on the processing

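Under all 14 alternatives, 0 members passed the adjusted threshold for injury over both genotypes, and the lowest adjusted limma p was 0.123, for Cldn4 with slide as a block. Over all genes, 1 was called with quantile normalization, 1 in the deposited values, 1 with slide as a block, 3 with a trended robust prior and 0 otherwise. The 10 members with groups that do not overlap kept the sign of their difference in all 14, and 10 of the other members changed sign in at least 1. For most alternatives the kept sign was fixed by how those 10 were picked. Leaving out an array cannot reverse separate groups, and the filter, slide and prior settings leave the estimate as it was. The contrast with the other members is therefore in large part a result of that selection. Normexp shifted the median over all genes by 0.25. It gave log2 differences of 0.29 for Cldn11, -0.10 for Cldn2, 0.066 for Cldn9, 0.033 for Ocln and 0.069 for Tjp3, which relative to the median were 0.099, -0.29, -0.13, -0.16 and -0.12. Of the 8 higher members, 7 kept separate groups with normexp (Cldn7 overlapped) and 7 with quantile normalization or deposited values (Cldn14 overlapped). With quantile normalization or deposited values, F11r also lay above sham on every injured array. With normexp, 3 lower members had separate groups, Cldn10, Cldn12 and Jam3. The count of lower members with separate groups was 1 with quantile normalization or deposited values, and 2 to 6 when an array was left out, 6 of them without wild-type sham array 2. With fewer arrays more genes separate by construction, so these counts are no result about the members. Among the fits lacking an array, the share over all genes was taken only without wild-type injured array 1. There 3 members lay below sham, against 21.2% of all genes. Leaving out 1 array at a time gave -0.68 to 0.22 for Cldn19, -0.036 to 0.42 for Tjp1 and -0.50 to 0.38 for Tjp3, with the highest values of Cldn19 and Tjp3 and the lowest one of Tjp1 coming from the fit that lacks wild-type injured array 2. It gave -0.24 to 0.44 for Marveld1, negative when either wild-type injured array 1 or wild-type sham array 1 (-0.13) was dropped, and -0.34 to 0.067 for Magi3, positive when that sham array was dropped. Leaving out either Gpr97-deficient array, chosen after seeing the data, gives the wild-type difference, -0.18 for Cldn26 and 0.022 for Tjp3, and Cldn26 reached 1.13 with wild-type injured array 2 dropped. The causes were not tested. No paired analysis was possible because the labels give the groups no shared replicate numbers. Arrays were instead paired by slide, as values with no test, and slide was used as the block. Signals near background limit Cldn11 and Cldn26 most.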
